A study of Mus musculus with 2 samples.

Results

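GC-poor protein-coding promoter peaks were examined in 1 ATAC-seq library of wild-type (WT) embryonic stem cells (ESCs) and 1 library of Uhrf1 knockout (KO) ESCs. ATAC-seq inserts sequencing adapters with the Tn5 transposase into DNA that is not wrapped by nucleosomes, and a peak is a stretch where insertions pile up. The WT cells were the mouse E14 ESC line, and the KO cells carried the Uhrf1 KO genotype in the same line as the labels give it. Both were labelled undifferentiated and were grown in serum medium with leukemia inhibitory factor on gelatin or on a layer of mouse embryonic fibroblasts, and 50000 cells per library were lysed for transposition. The sources used here do not give the number of clones or the kind of mutation of the KO line, which came from another laboratory. A peak was counted as a member when it lay on an autosome, its center was within 2 kb of a transcript start of a protein-coding gene (GENCODE vM1, mm9) and the central 200 bp held less than 60% G and C. This choice used position and sequence and not peak strength. It took 8175 of 69440 autosomal WT peaks (11.8%) and 7417 of 59218 autosomal KO peaks (12.5%), or 15592 of 128658 in both lists. The complete lists held 71914 and 61640 peaks. The files give positions only, since the score of every peak is 1, and the read depth is therefore unknown. With 1 library per genotype there was no replicate check, so no test between genotypes was made, and the 95% exact (Clopper-Pearson) intervals given with the shares cover counting error only.

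Promoters of mammalian genes fall into broad kinds. Most housekeeping and many developmental genes start in CpG islands, stretches rich in G, C and CpG dinucleotides that stay free of DNA methylation. Promoters poor in CpG often belong to tissue-specific genes and are commonly methylated where the gene is silent. Uhrf1 binds hemimethylated CpG after replication and brings the maintenance methyltransferase Dnmt1 to it, so that cells without Uhrf1 lose much of their DNA methylation. The Uhrf1 promoter itself held no member and 2 GC-rich peaks in WT and 3 in KO, and such peaks do not check a mutation.

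The sequences of members of each kind are shown first, so that their CpG content can be seen. A member was called shared when a peak of the other list lay no more than 100 bp away, and WT-only or KO-only when none did. Peak names carry a number on each chromosome, and the members shown have the lowest numbers relative to the chromosome among those within 500 bp of a start whose central 31 bp occur once in the genome. The stretches were read from mm9 on the strand of the gene, untranslated exon parts were left out, and capitals mark CpG. The shared members lay near Ghitm (chr14:37948852-37949051), which encodes a protein of the mitochondrial inner membrane, Ccng1 (chr11:40568814-40568987), which encodes cyclin G1, and the gene model Gm10800 (chr2:98507134-98507333). The stretches hold 8, 10 and 5 CpG.
Ghitm: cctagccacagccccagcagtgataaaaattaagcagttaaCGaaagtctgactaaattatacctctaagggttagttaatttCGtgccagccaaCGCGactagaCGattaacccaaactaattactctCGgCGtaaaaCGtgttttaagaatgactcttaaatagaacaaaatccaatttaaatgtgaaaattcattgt
Ccng1: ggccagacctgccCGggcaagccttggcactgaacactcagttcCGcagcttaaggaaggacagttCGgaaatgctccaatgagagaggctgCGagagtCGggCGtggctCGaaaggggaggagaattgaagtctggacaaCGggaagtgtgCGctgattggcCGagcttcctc
Gm10800: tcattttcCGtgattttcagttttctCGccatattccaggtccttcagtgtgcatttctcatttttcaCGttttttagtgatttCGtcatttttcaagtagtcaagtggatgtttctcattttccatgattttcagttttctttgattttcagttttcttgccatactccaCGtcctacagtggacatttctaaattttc
The WT-only members lay at Hist1h2af (chr13:23625374-23625573), a histone H2A gene, in an intron of Wt1 (chr2:104970470-104970669), which encodes a transcription factor of kidney and gonad, and in a coding exon of Leprel2 (chr6:124800620-124800819), a prolyl hydroxylase of collagen. These hold 4, 5 and 5 CpG.
Hist1h2af: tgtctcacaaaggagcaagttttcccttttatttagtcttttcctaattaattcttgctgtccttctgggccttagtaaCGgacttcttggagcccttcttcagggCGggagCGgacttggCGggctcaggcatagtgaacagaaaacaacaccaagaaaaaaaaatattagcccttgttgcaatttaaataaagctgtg
Wt1: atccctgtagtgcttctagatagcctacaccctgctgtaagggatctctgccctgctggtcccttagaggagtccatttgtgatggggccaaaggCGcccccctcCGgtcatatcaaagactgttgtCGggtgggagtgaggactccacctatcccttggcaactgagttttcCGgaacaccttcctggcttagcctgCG
Leprel2: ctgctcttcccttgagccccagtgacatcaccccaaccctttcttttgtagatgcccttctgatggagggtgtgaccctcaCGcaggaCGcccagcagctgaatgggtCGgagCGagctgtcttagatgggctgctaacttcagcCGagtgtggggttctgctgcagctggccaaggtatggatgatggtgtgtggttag
The KO-only members lay at Crebl2 (chr6:134779930-134780129), which encodes a bZIP protein, at Fryl (chr5:73648051-73648250) and a coding exon of Sfi1 (chr11:3077385-3077584), whose product binds centrins. These hold 11, 6 and 2 CpG.
Crebl2: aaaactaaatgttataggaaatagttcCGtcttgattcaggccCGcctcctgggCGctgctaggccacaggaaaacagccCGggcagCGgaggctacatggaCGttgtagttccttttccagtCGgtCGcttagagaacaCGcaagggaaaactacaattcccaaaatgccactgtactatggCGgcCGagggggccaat
Fryl: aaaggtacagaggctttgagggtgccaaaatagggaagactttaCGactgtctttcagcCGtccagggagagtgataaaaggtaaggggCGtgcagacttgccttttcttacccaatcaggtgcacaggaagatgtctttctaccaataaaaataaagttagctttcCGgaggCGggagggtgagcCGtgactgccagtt
Sfi1: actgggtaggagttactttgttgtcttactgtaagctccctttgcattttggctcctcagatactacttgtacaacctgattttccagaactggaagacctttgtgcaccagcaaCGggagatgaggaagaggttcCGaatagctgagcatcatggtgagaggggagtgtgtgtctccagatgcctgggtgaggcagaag
The other shared members of this choice were at Syt1, the calcium sensor of synaptic vesicles, Fam160a2, Mdh1, the cytosolic malate dehydrogenase, Pwwp2a, and Gm10800 again. No list of regions with artificially high signal was used here, and the Gm10800 and Sfi1 members may lie in repeats collapsed in the assembly, although their central 31 bp occur once in it. The likeness of the Ghitm member to mitochondrial DNA is described below. The KO-only label is narrow at several of these genes, because the nearest WT peak lay just beyond the limit. It was just over 100 bp away at Crebl2 and 151 bp away at Fryl, whereas it was 4356 bp away at Sfi1. Of the 8 KO-only members named by the same rule, 4 more were at Rtn4, Urgcp, Tlcd2 and Nicn1, with WT peaks 117, 107, 159 and 6320 bp away, and the last was at Hist1h3b, 1018 bp from a WT peak. The nearest KO peaks to the WT-only members were 490 bp away at Hist1h2af, 3753 bp at Wt1 and 3085 bp at Leprel2. At the remaining WT-only members the gap was 125 bp at H2afx, 199 bp at Kcnab1, 76253 bp at Plcxd3, 147 bp at Vgll2 and 1678 bp at Jub.

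Most GC-poor promoter peaks were found in both libraries, and more of them were missing from the KO list than from the WT list. In WT, 2383 of 8175 members had no KO partner (29.1%, interval 28.2 to 30.1). In KO, 1527 of 7417 members had no WT partner (20.6%, interval 19.7 to 21.5). Over all autosomal peaks these shares were 32.2% in WT and 24.4% in KO, so both values for the members were below the background. When 50% of both regions had to overlap, the KO share of the members, 43.8%, was above that of all autosomal peaks, 42.3%. GC-rich promoter peaks, those with at least 60% GC, had a lower share without a partner in both lists, 24.6% in WT and 4.45% in KO. The WT order turned with other partner rules: 50% of GC-rich against 49.7% of GC-poor peaks had no partner when 50% of both regions had to overlap, and 27.2% against 23.9% when peaks of the lower 50% of name numbers were used. With these peaks set against the whole other list it was 9.23% against 8.56%. Peaks more than 2 kb from any protein-coding start had 38.9% and 37.2%. The KO list held 0.907 members per WT member, against 0.718 for GC-rich promoter peaks and 0.947 for peaks far from starts. Of the 5792 shared WT members, 4967 (85.8%) had a partner that was itself a GC-poor promoter peak, for 814 the only promoter partner was GC-rich, and 11 had partners beyond 2 kb of a start. Members of a list often lay side by side: 45.7% of WT and 41.2% of KO members had another peak of the same list within 100 bp, so neighboring members share sequence. The 2 peaks of a pair rarely coincided, as 112 members (1.93% of shared WT members) had the same start and end in both lists.

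The difference between genotypes turned with GC content within the members. Between 55 and 60% GC, 28.4% of 4934 WT peaks and 13.1% of 4036 KO peaks had no partner. Between 50 and 55% the shares were 30.7% and 23.8%. Between 45 and 50% they were 30.5% and 39.1%, and between 40 and 45% they were 28.7% of 157 WT peaks and 47.2% of 233 KO peaks. From 60 down to 40% GC the WT-only share stayed between 28.4 and 30.7%, whereas the KO-only share was higher in each lower bin. Below 40% GC the bins held 23 to 61 peaks and their intervals were wide. With the limit set at 50% GC, the KO list held 1232 members against 975 in WT, the ratio became 1.26, and 39.5% of KO members against 29.2% of WT members had no partner. Peaks far from starts also differed by GC, from 43.6% WT-only and 26.1% KO-only at 55 to 60% GC to 31.6% and 53.2% at 40 to 45%. The part of GC content in the difference between the libraries was not tested. At the limit itself the values were continuous: 24.8% of WT and 9.57% of KO peaks had no partner at 59 to 60% GC, and 25.6% and 8.33% at 60 to 61%.

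**Figure D1:**
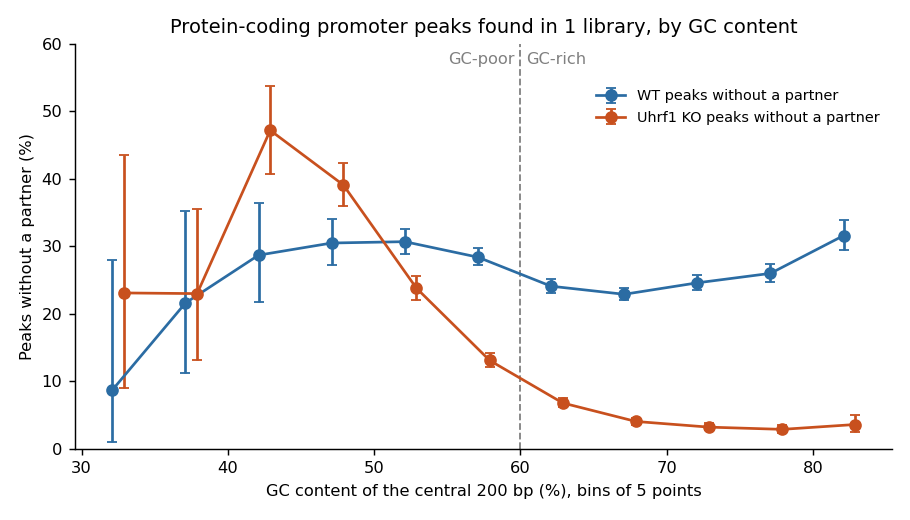
Share of protein-coding promoter peaks without a partner in the other library (y axis, percent) in bins of 5 percentage points of GC content of the central 200 bp (x axis), for WT (blue) and Uhrf1 KO (orange) peaks, with 95% exact binomial intervals. Left of the dashed line at 60% are the GC-poor members: the KO share was 13.1% at 55 to 60% GC and 47.2% at 40 to 45%, while the WT share was 28.4% and 28.7%.

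Members found in both libraries held more CpG than those found in 1. The median number of CpG in the central 200 bp was 8 in shared WT members, 6 in WT-only members and 4 in KO-only members, against 19 in GC-rich promoter peaks of either library. Median GC content was 56.0% in shared and WT-only members and 52.5% in KO-only members, so the CpG numbers were also set side by side at like GC. At 55 to 60% GC, shared members held 9.66 ± 4.30 CpG (mean ± SD over 3531 peaks), WT-only members 8.05 ± 4.13 (1403 peaks) and KO-only members 6.85 ± 4.08 (529 peaks). Below 50% GC the means were 4.12 ± 3.21, 3.28 ± 2.44 and 2.93 ± 2.39. These ranges overlapped widely. No CpG at all was found in 2.00% of shared KO members, 2.90% of WT-only members and 6.42% of KO-only members.

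**Figure D2:**
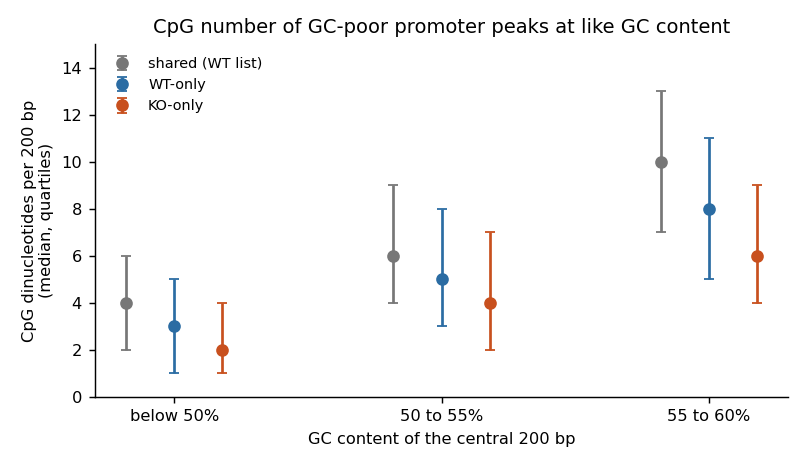
Number of CpG dinucleotides per central 200 bp (y axis, median with quartiles) of shared, WT-only and KO-only GC-poor promoter peaks in 3 ranges of GC content (x axis). In each range the shared members had the highest median and the KO-only members the lowest, 10, 8 and 6 at 55 to 60% GC.

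Members at low-CpG promoters lacked a partner most often in both lists. A start was called high-CpG when a 500 bp window between 700 bp before and 200 bp after it had an observed to expected CpG ratio over 0.75 with over 55% GC, low-CpG when no window exceeded a ratio of 0.48, and intermediate otherwise. At low-CpG promoters 734 of 2038 WT members (36.0%, interval 33.9 to 38.1) and 623 of 1905 KO members (32.7%, interval 30.6 to 34.9) had no partner. At high-CpG promoters the shares were 27.3% and 17.0%, and at intermediate ones 26.4% and 15.8%. The intervals of both lists overlapped at low-CpG promoters and did not at the others, but they cover counting error only. Neighboring members are not independent counts, so this overlap is no comparison between genotypes. With the 50% GC limit the order at low-CpG promoters was the opposite, 32.7% in WT and 46.9% in KO.

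GC-poor promoter peaks were most frequent just before the transcript start, but less so than GC-rich ones. Of WT members 32.1% and of KO members 35.2% had their center in the 200 bp before it, and the median distance was 269 bp in WT and 241 bp in KO. Of GC-rich promoter peaks 39.1% and 44.9% lay there, with median distances of 116 and 98 bp. Upstream centers made up 62.1% of WT and 65.5% of KO members, against 51.6% and 58.0% of GC-rich promoter peaks. In the 200 bp before the start 15.4% of WT and 10.1% of KO members had no partner. The share was higher farther out on both sides, at 36.8% and 28.9% between 2 and 1 kb upstream and 45.4% and 40.6% between 1 and 2 kb downstream. The median distance was 187 bp for shared WT members, 481 bp for WT-only and 568 bp for KO-only members. GC-rich promoter peaks lacked a partner in 14.2% (WT) and 1.89% (KO) of cases in the 200 bp before the start and in 42.5% and 10.7% at 200 to 500 bp after it, where the members had 41.6% and 23.1%. By annotation, 44.1% of WT members lay outside genes, 34.2% in introns, 16.9% in non-coding parts of exons and 4.80% in coding exons. In coding exons 164 of 392 WT members (41.8%) and 48 of 249 KO members (19.3%) had no partner. In introns the shares were 38.9% and 30.5%.

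**Figure D3:**
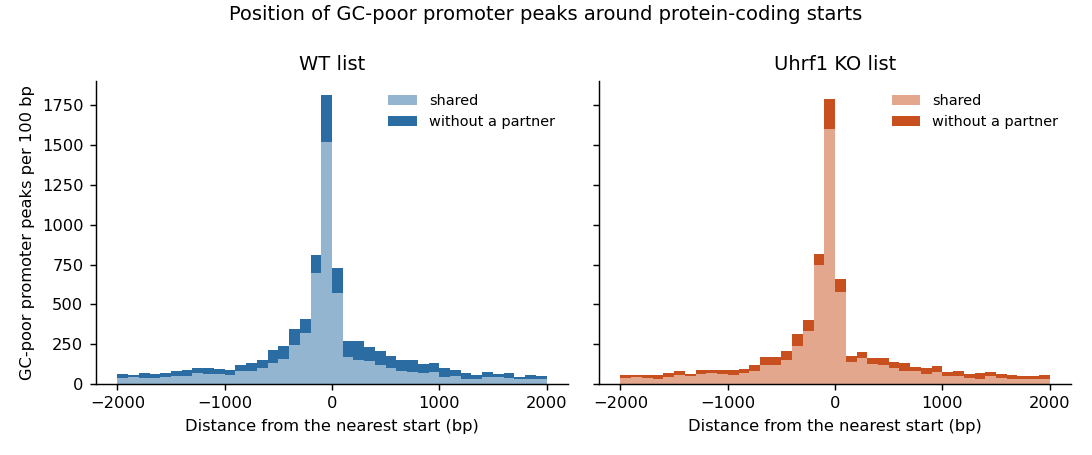
Number of GC-poor promoter peaks per 100 bp (y axis) by distance of the peak center from the nearest protein-coding start (x axis, bp, negative upstream), in the WT list (left) and the Uhrf1 KO list (right). Dark bars are members without a partner in the other library, stacked on shared members, and both lists peak in the 100 bp before the start.

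Members with low name numbers were almost all shared. Within the lowest 20% of the numbers of a chromosome, 11 of 1525 WT members (0.721%) and 16 of 1731 KO members (0.924%) had no partner, against 60.7% and 46.0% within the highest 20%. The files do not say what sets the number. When the lower 50% of numbers of one list were compared with the whole other list, 8.56% of WT and 6.35% of KO members had no partner. Copy number of the sequence differed slightly between the kinds: the central 31 bp occurred more than once in the genome in 4.25% of shared WT, 2.73% of WT-only and 6.22% of KO-only members. The genes with most members were Pde4d, a cAMP phosphodiesterase with 19 annotated starts (10 WT and 17 KO members), Gm10925 (12 and 14), Gm10222 (12 and 13), Myo10, an unconventional myosin (11 and 12), and Palld, an actin-binding protein on chromosome 8 (13 and 5). The starts of 1 gene can share members with those of another, and 12.4% of WT and 12.2% of KO members lay within 2 kb of more than 1 gene. Gm10925 and Gm10222 are neighboring gene models on chromosome 1 between 24619243 and 24621627. Their members resembled mitochondrial DNA: of all members, 17 in WT and 19 in KO shared at least 20% of their 15 bp words with the mitochondrial genome, and all 36 of them were nearest to these gene models. One of the 36, in KO, had no partner. The Ghitm member shown above, number 1 on its chromosome, shared an unbroken run of 21 bp with mitochondrial DNA, against 10 to 12 bp for the other named members. Both measures count exact matches only, so this member may be a diverged copy of mitochondrial DNA that they miss. Likeness with mismatches was not examined.

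Counted by gene, a GC-poor promoter peak was present at 5928 of 21418 autosomal protein-coding genes in WT (27.7%) and 5579 in KO (26.0%). Of these, 4056 genes had a member in both libraries, 1872 in WT only (8.74%) and 1523 in KO only (7.11%). A gene with members in 1 list often had another peak in the other. Of the 1872 genes, 1411 (75.4%) had a WT member without a partner and 530 (28.3%) had no KO promoter peak of any GC content. Of the 1523 genes, 871 (57.2%) had a KO member without a partner and 284 (18.6%) had no WT promoter peak. Among the 9071 genes whose every start was GC-poor, 19.7% carried a WT and 18.7% a KO member. These genes split by CpG class: 70.8% of 545 high-CpG ones carried a WT member and 64.4% a KO member, 42.9% and 39.9% of 1890 intermediate ones, and 8.88% and 8.89% of 6636 low-CpG ones. A promoter peak of any GC content was found at 12% of these low-CpG genes in WT and 11.2% in KO.

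Pluripotency genes carried GC-poor promoter peaks more often than the background of 27.7% and 26.0%. Of 57 listed genes, 34 (59.6%, interval 45.8 to 72.4) had a WT member and 30 (52.6%, interval 39.0 to 66.0) a KO member. Promoter peaks of any GC content were also more frequent than over all genes. They were at 53 listed genes (93.0%) in WT and 48 (84.2%) in KO, against 64.2% and 59.2% of all genes. Pou5f1, which encodes Oct4, had 6 WT and 3 KO members, 5 of the WT members shared, and its WT-only member lay 743 bp upstream of a start at chr17:35642189-35642289. Nanog had a shared member within 19 bp of its start in both lists and a WT-only member 323 bp upstream. Tdgf1, a Nodal co-receptor, had 7 WT and 5 KO members, and Zscan10, a zinc finger factor of ESCs, had 10 and 6. Dppa5a, an RNA-binding protein of ESCs, had 2 members in each list, and Zfp42, known as Rex1, had 1 in each, all of them shared. Members were found in WT only at Dppa4, Lefty1, Lin28a, Tet2, Socs3, Morc1 and Ncoa3, and each of these had no KO partner. The Dppa4 member (chr16:48283786-48283886, 12 bp upstream of the start, 3 CpG) and the Morc1 member (chr16:48431259-48431359, 41 bp upstream) were at genes with no KO promoter peak of any kind. Lefty1, an inhibitor of Nodal signaling, had 3 WT-only members, at 1152 and 353 bp upstream and 1087 bp downstream of its starts, and no KO promoter peak. Lin28a, which blocks let-7 processing, had 1 KO promoter peak that was GC-rich, and Tet2, a methylcytosine dioxygenase, had 4. Members in KO only were at Sox2 (chr3:34548182-34548282, 695 bp upstream), Utf1 (1792 bp downstream) and Sox15 (chr11:69468454-69468554, 312 bp upstream), all without a WT partner. Each of these had GC-rich promoter peaks in both lists.

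Many germ cell genes are held silent by promoter methylation in somatic cells. Of 67 autosomal genes, 8 (11.9%, interval 5.30 to 22.2) had a WT member and 11 (16.4%, interval 8.49 to 27.5) a KO member. The KO interval held the background of 26.0%, and the WT interval lay below that of 27.7%. Of these genes 35 (52.2%) had a promoter peak of any GC content in WT and 26 (38.8%) in KO, against 64.2% and 59.2% of all genes. Hormad1, a protein of meiotic chromosome axes, had a WT-only member 508 bp upstream (chr3:95363041-95363141), and no KO promoter peak. The name number of this member was 95.6% of the highest on the chromosome. Rpl10l, a ribosomal protein copy of the testis, had 2 WT members, both with a KO partner that was GC-rich. Piwil4, a piRNA-binding protein, had a KO-only member in an intron (chr9:14520992-14521092). Smc1b, a meiotic cohesin subunit, had a KO-only member 121 bp upstream (chr15:84962458-84962558) with 21 CpG, and no WT promoter peak, as at Piwil4. Dnd1, an RNA-binding protein of germ cells, had a KO-only member in a coding exon 534 bp downstream of a start. The name numbers of the Piwil4, Smc1b and Dnd1 members were 58.5, 52.5 and 57.3%. Rec8, another meiotic cohesin subunit, had 3 KO members and Tdrkh, a Tudor domain protein of the piRNA pathway, had 1, all of them shared with GC-rich WT peaks. Members in both lists were found at Tex14, Piwil2, Stag3, Ddx25, Msh4 and Gdf9. At Msh4, a meiotic mismatch repair homolog, the WT member was WT-only and the KO member was shared with a GC-rich WT peak.

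Antiviral and interferon genes carried members at 13 of 36 genes in WT (36.1%, interval 20.8 to 53.8) and 14 in KO (38.9%, interval 23.1 to 56.5). Both intervals held the background over all genes, 27.7% in WT and 26.0% in KO. Among the genes of all lists searched for it, 8 had a single-copy member with the octamer bound by Oct4, the bases ATGCAAAT on either strand. The member nearest to a start was taken for each gene, and 3 of them are printed with the octamer in capitals. The octamer member of Oas1b, an oligoadenylate synthetase, lay just before its start (chr5:121262537-121262643) and was shared. The Otx2 member (chr14:49282548-49282745), at a homeobox gene of the anterior neural plate, was KO-only, in an intron 99 bp upstream of an internal start. The Esrrb member (chr12:87811903-87812102), at an orphan nuclear receptor gene of naive ESCs, was shared and intronic. The other octamer members were at Irf3, L1td1 and Dppa3 (shared) and at Pax6 and Lefty1 (WT-only).
Oas1b: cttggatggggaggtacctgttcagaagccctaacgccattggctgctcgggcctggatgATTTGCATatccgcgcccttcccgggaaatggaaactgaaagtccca
Otx2: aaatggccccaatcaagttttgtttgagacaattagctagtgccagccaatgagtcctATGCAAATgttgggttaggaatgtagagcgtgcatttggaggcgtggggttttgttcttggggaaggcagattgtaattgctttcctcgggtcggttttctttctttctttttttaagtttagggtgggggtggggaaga
Esrrb: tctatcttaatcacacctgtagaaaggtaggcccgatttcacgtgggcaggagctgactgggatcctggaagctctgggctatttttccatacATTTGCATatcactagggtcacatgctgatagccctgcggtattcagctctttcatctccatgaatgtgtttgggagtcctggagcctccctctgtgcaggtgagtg
Ifit2 and Irf9 carried members in both lists, as did Irf3, Irf7, Ddx58, Bst2, Ifitm1, Gbp2, Gbp3 and Adar. Dhx58, an RNA helicase of the antiviral response, carried one in WT only, and Stat2, Rsad2 and Tlr3 in KO only. The Dhx58 and Rsad2 members had no partner, and those of Stat2 and Tlr3 were shared with a WT peak. The only Irf7 members, 1217 bp (WT) and 1228 bp (KO) upstream, were repeated sequence, with 3180 copies of the central 31 bp of the WT member and 4 of the KO member. Among 22 genes of the methylation machinery 8 had a WT member (36.4%, interval 17.2 to 59.3) and 9 a KO member (40.9%, interval 20.7 to 63.6). These intervals also held the background. All 22 had a promoter peak in both lists. Tet2 and Mbd2 had a member in WT only, both without a KO partner, and Dnmt3a, Ehmt1 and Suv39h2 had one in KO only. Of these 3, the Ehmt1 member had no WT partner, whereas those of Dnmt3a and Suv39h2 were shared with WT peaks that were not GC-poor members.

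The lists of other lineages were short, and several of their intervals held the background of 27.7% and 26.0%. Of 29 mesoderm and muscle genes 3 had a WT member and 5 a KO member, with Hand2 in WT only and Mixl1, Myh6 and Des in KO only, all without a partner. Their name numbers were 27.7, 61.1, 64.4 and 48.9% of the highest on the chromosome. The KO share of 17.2% had an interval of 5.85 to 35.8. Of 21 neuroectoderm genes 7 (33.3%) had a member in each list, with an interval of 14.6 to 57, and Pax6, an eye and brain homeobox gene with many starts, had 8 in WT and 4 in KO. Neurog2 and Olig2 had a member in WT only, and Ednra and Zic1 in KO only. Of these, the Olig2 member had no partner and a name number of 98.9%, and the others were shared with a peak of the other list. Of 36 immune cell genes 2 (5.56%, interval 0.680 to 18.7) and 3 (8.33%, interval 1.75 to 22.5) had a member, with Fcer1g in KO only. The Fcer1g member had a name number of 98.2%. Of 29 liver and gut genes 4 (13.8%, interval 3.89 to 31.7) and 3 (10.3%, interval 2.19 to 27.4) had one, with Cdx1 and Hnf4a in WT only and Muc2 in KO only. Of 30 genes listed for the 2-cell stage 6 were not found, and among the other 24 Zfp809 alone had a member, in both lists. Zfp809 was intermediate-CpG, whereas the Zscan4, Tdpoz and Dub genes found were low-CpG and had no promoter peak. Expression of the listed genes at that stage was not examined. The cell type label was checked with 7 ESC markers, all of which had a promoter peak of some kind in both lists, as had 64.2% (WT) and 59.2% (KO) of all genes. Of 12 fibroblast markers, 6 (50%) had a promoter peak in WT and 5 (41.7%) in KO, and 2 in each list had a GC-poor one: Col1a1 in both, Dcn in WT only and Col1a2 in KO only. The part of feeder cells in these peaks was not tested.

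Large gene families differed widely. Replication-dependent histone genes, which encode the histones made during DNA synthesis, had a member at 59 of 67 genes in each list (88.1%, interval 77.8 to 94.7), 56 of them in both. Zinc finger genes named Zfp had 168 (46.4%) and 163 (45.0%) of 362. Olfactory receptors, which are expressed in sensory neurons of the nose and nearly all of which have GC-poor starts, had a member at 17 (1.57%) and 18 (1.67%) of 1081 genes. Vomeronasal receptors had one at 4 and 9 of 319, and keratin-associated proteins at 0 of 46, with an exact interval up to 7.71%. Transfer RNA synthetases had a member at 15 of 34 genes in WT and 20 in KO, and 9 genes had one in KO only: Cars, Iars, Mars, Nars, Rars, Sars, Tars, Yars and Yars2. All 34 had a promoter peak in both lists, against 64.2% (WT) and 59.2% (KO) of all genes. Cytosolic ribosomal protein genes had 31 and 36 of 75, with 6 in WT only and 11 in KO only, whereas mitochondrial ribosomal protein genes had 35 and 28 of 76, with 12 and 5. Over all genes, 8.74% had a member in WT only and 7.11% in KO only, against 11.8% and 26.5% of the tRNA synthetases, 8.0% and 14.7% of the cytosolic and 15.8% and 6.58% of the mitochondrial ribosomal protein genes. These families were named after their values were seen. Beta-defensins, antimicrobial peptides of epithelia, had no WT promoter peak at 41 genes and a KO member at Defb1, Defb9, Defb29 and Defb30. The intervals of both lists, which cover counting error only, overlapped in each of the 21 families.

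**Figure D4:**
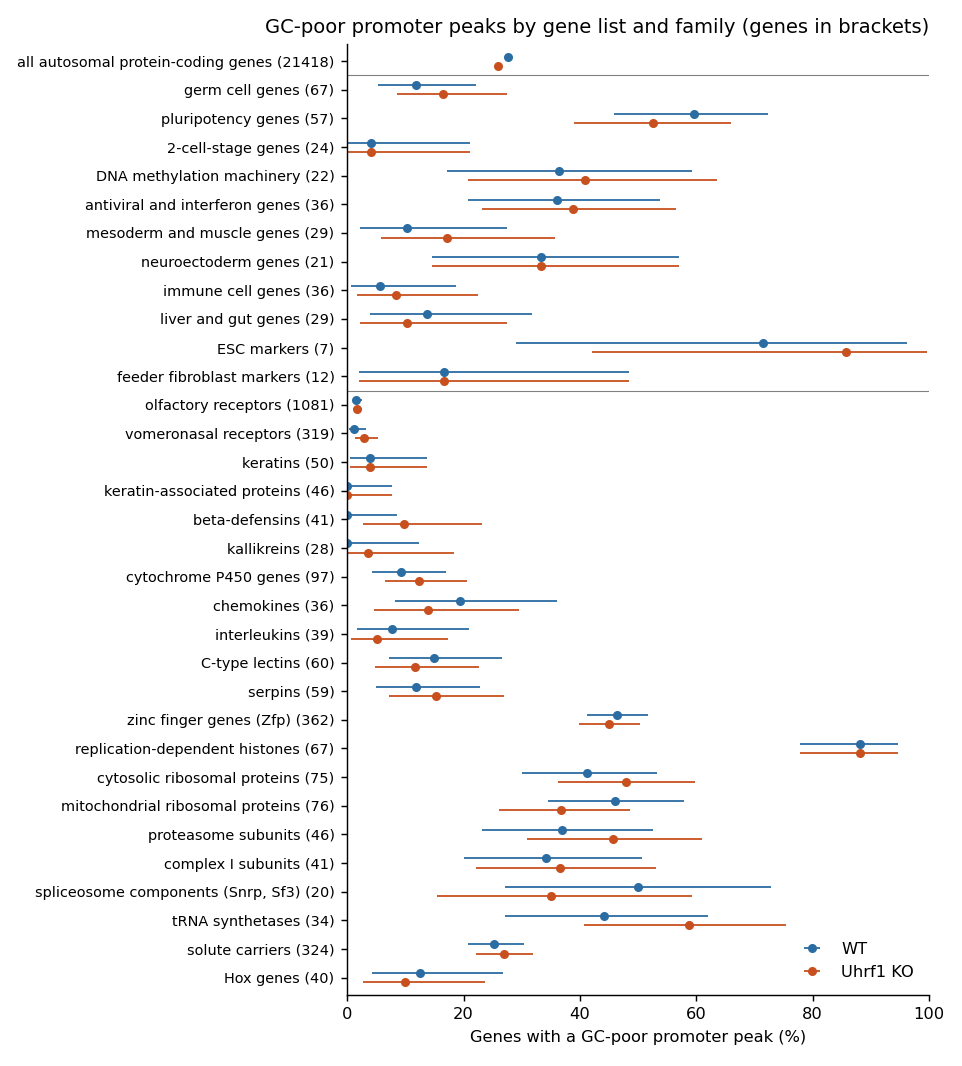
Share of genes with a GC-poor promoter peak (x axis, percent, with 95% exact binomial intervals) in the WT (blue) and Uhrf1 KO (orange) libraries, for all genes, 11 gene lists and 21 gene families (y axis, number of genes in brackets). Histone genes reached 88.1% in both lists and olfactory receptors 1.57 and 1.67%, against 27.7 and 26.0% of all genes.

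Motifs of promoter-binding factors were most frequent in shared members. A set of 14 short motifs was searched on both strands in the central 200 bp and in windows of the same length 1 kb to either side. Neighboring members share sequence, so 1 motif can be counted in several members. The intervals of motif shares do not allow for this. The CCAAT box (CCAAT), bound by NF-Y, was present in 40.2% of shared WT members, 21.9% of WT-only and 26.1% of KO-only members, against 22.5% of the flanks of shared members and 26.2% of 37015 windows around GC-poor starts. The GC box (GGGCGG), bound by Sp1, was present in 31%, 19.8% and 15.7%, and in 9.97% of windows at GC-poor starts. The ETS site (CCGGAAG) followed with 9.34%, 4.87% and 3.80% (starts 4.08%), the CRE (TGACGTCA), bound by Creb, with 2.09%, 0.839% and 1.24% (starts 0.740%), and the NRF1 core (GCGCATGCG) with 1.55%, 0.587% and 0.196% (starts 0.338%). The rare element TCTCGCGAG was in 0.673%, 0.21% and 0.131% (starts 0.154%).
Since shared members also lay nearer to starts, the shares were taken again among members within 200 bp of one. The CCAAT box was then in 48.0% of 2963 shared WT, 23.4% of 661 WT-only and 30.8% of 380 KO-only members, and the ETS site in 14.0%, 10.4% and 7.37%. The GC box was in 37.1%, 24.7% and 21.8%, and the NRF1 core in 2.56%, 1.06% and 0.263%. The CRE did not keep the order there, with 3.07%, 1.82% and 3.42%, highest in KO-only members. These members still differed in CpG, with medians of 10, 8 and 5.

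The remaining motifs differed less between the kinds or were most frequent in KO-only members. The octamer was in 1.93% of shared WT members (interval 1.59 to 2.32), 1.13% of WT-only (0.748 to 1.64) and 2.36% of KO-only members (1.66 to 3.25), against 1.01% of windows at GC-poor starts and 1.10 to 1.21% of flanks. The Sox site (CATTGTT) was in 2.14%, 2.31% and 3.80% (starts 2.72%), and the Ap1 site (TGANTCA) in 4.87%, 4.53% and 7.47% (starts 5.60%). The KO-only members also had lower GC, and the part of base composition in these shares was not tested. The TATA box (TATAAA) was less frequent in members than in their flanks, 3.80%, 4.41% and 5.50% against 10.7 to 11.7% (starts 10.4%). The E-box (CACGTG) was in 5.77%, 5.29% and 5.76% (starts 3.43%), the YY1 site (AAGATGGC) in 2.75%, 2.27% and 2.1% (starts 1.94%), and the Esrrb site (TCAAGGTCA) in 0.345%, 0.378% and 0.393% (starts 0.324%). The CTCF core (CNAGGGGGC) was in 2.52%, 2.52% and 2.23% (starts 0.775%). No motif contains another, but their letters can overlap in a peak, and the E-box, the CRE and the Ap1 site read the same on both strands. In the 93 KO members at histone genes the CCAAT box was present in 51.6% (interval 41.0 to 62.1) and the TATA box in 21.5%, and in the 83 WT members in 34.9% (24.8 to 46.2) and 14.5%. The GC box was in 24.7% of these KO and 33.7% of these WT members, whose median GC content was 52.0% and 55%.

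**Figure D5:**
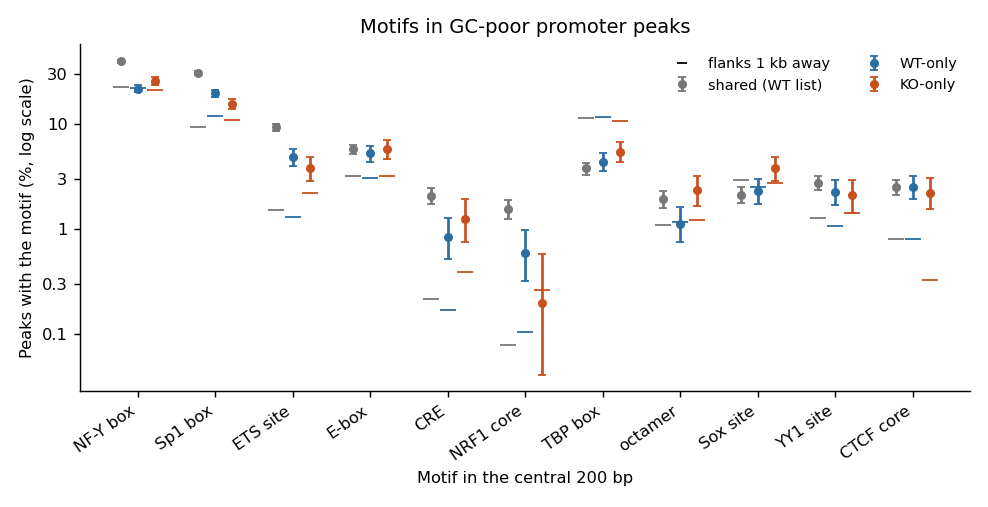
Share of GC-poor promoter peaks whose central 200 bp hold a motif (y axis, percent, log scale), for 11 of the motifs by name (x axis), in shared, WT-only and KO-only members, with 95% exact binomial intervals. Short horizontal marks give the flanks 1 kb away, and the NF-Y box (CCAAT box), Sp1 box (GC box), ETS site, CRE and NRF1 core were highest in shared members, while the TBP box (TATA box) was below its flanks.

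Chromosome 8 had the lowest ratio of KO to WT members among the autosomes. It held 537 WT and 389 KO members, a ratio of 0.724, against 0.776 on chromosome 12 to 1.02 on chromosome 13 for the other 18 autosomes. On chromosome 8, 40.6% of WT and 13.1% of KO members had no partner. Without it the ratio of KO to WT members was 0.920, and 28.3% of WT and 21.0% of KO members had no partner. GC-rich promoter peaks and peaks far from starts on chromosome 8 also lacked a KO partner more often, 30.7% and 52.3% in WT against 24.2% and 37.8% elsewhere. These shares were taken for the other autosomes together, so they do not set chromosome 8 apart from each of them. For GC-rich promoter peaks the ratio was 0.639 on chromosome 8 and 0.674 on chromosome 17.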

How the data were processed

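ATAC-seq of 1 WT and 1 Uhrf1 KO ESC library was analysed from the deposited peak lists. Per the study's methods, reads were mapped to mm9 with Bowtie2 in local mode, and fragments shorter than 150 bp were used. The submitters' processing notes name Bowtie2 2.1.0 and HOMER 4.9.1 without a role. The peak caller, its threshold and any shift for Tn5 are not given in the sources used here. The score deposited by the authors is 1 for every peak, and the lists hold positions of 101 bp regions (1 has another width) with no read counts, so depth is unknown. GC content, CpG, copies and motifs were read from the NCBIM37 (mm9) genome, and genes from GENCODE vM1, with Python 3.11.15, numpy 2.4.6, pandas 2.3.3, scipy 1.17.1 and numba 0.67.0. The routines for partners, distances, CpG classes and copies were tested on simulated regions. The members and gene lists were chosen with earlier results of these data known. Named genes were, for each of shared, WT-only and KO-only members, the 8 with the lowest relative name number within 500 bp of a start and with single-copy central 31 bp, then the list genes with members in 1 library and up to 6 with members in both, and the 5 genes with most members. Genes of families, and list genes beyond 6, were named after their values were seen. Other partner, distance, GC, start, copy, name number and merging rules were tried.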

Additional observations from a re-analysis of the deposited data

Results flagged for a closer look

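The X chromosome lay outside the comparisons. By the same distance and GC rule it held 313 GC-poor promoter peaks in the WT library and 287 in the Uhrf1 KO library, above the limit that a count of 0 allows. Of these, 63 (20.1%, interval 15.8 to 25.0) had no KO partner and 55 (19%, interval 14.8 to 24.2) no WT partner, and the difference between genotypes was not tested.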

How the results depend on the processing

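Of 105 values recomputed under other settings, 52 stayed within the interval of the reported value (within 1.5 times for counts of genes), 52 moved and 1 reversed. No paired analysis was possible because the design has a single library of either genotype and no result comes from a test, and leaving out a library leaves no comparison. Values are given in the order of WT-only and KO-only share of members, then the same at low-CpG promoters. With at least 1 bp shared they were 35.7, 27.7, 39.9 and 37.2%, with 50% or more of each region in common 49.7, 43.8, 51.9 and 49.0%, and with neighboring peaks merged 33.4, 24.6, 39.4 and 35.8%. With starts within 1 kb they were 26.7, 17.6, 33.3 and 29.9%, and genes with every start GC-poor carried a WT member in 17.2% and a KO member in 16.3%. With a GC limit of 50%, the ratio of KO to WT members reversed to 1.26, the KO-only share was 39.5%, the low-CpG shares were 32.7 and 46.9%, the gene shares 3.04 and 4.02%, and the list counts 2 (WT) and 1 (KO) germ cell genes and 12 and 13 pluripotency genes. With GC content of the whole peak the shares were 26.9 and 19.4%, the ratio 0.955 and the gene shares 17.4 and 17.2%. With starts of protein_coding transcripts the shares were 28.1 and 19.3%, the low-CpG KO-only share 30.4% and the WT gene share 20.5%. With single-copy centers the gene shares were 18.8 and 17.7%. Using peaks of the lower 50% of name numbers alone, the shares were 23.9, 18.3, 32.4 and 29.3%, the ratio 0.969, the gene shares 11.9 and 11.7%, the germ cell genes with a KO member 5 and the pluripotency genes with a WT member 18. With these numbers of one list against the whole other list the shares were 8.56, 6.35, 11.6 and 11.8%, and the merged lists had a ratio of 0.949. The WT-only share was above the KO-only share under each of the 12 alternatives except the 50% GC limit. Leaving out members like mitochondrial DNA, an alternative chosen after seeing the data, or chromosome 8 moved no value beyond its interval. The cause of the moves was not tested, other than that stricter partner rules leave fewer partners by construction. Cutting each list to its low-numbered peaks lowered the shares of members, from 29.1 to 23.9% (WT) and from 20.6 to 18.3% (KO). With unknown depth, a missing peak does not show closed chromatin.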
